A study of Flaveria robusta and Flaveria sonorensis and Flaveria ramosissima with 24 samples.

Results

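Flaveria is a genus of the daisy family whose species use different types of photosynthesis, and the response of the leaf transcriptome to low CO2 was compared here between F. sonorensis, a C3-C4 intermediate, and F. robusta, a C3 species. The question was which genes responded differently in these species, and whether they moved in opposite directions or in the same direction by a different amount. The comparison used 12 of the 24 libraries of the series: 3 low CO2 and 3 control libraries of each species. Of the 29562 genes in the deposited table, 11373 (38.5%) reached a mean TPM of 1 across the 6 libraries of each species and were tested. TPM is transcript abundance corrected for transcript length and expressed relative to the whole library. A further 2821 genes reached that level in F. robusta only and 3063 in F. sonorensis only, and 12305 reached it in neither.

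Low CO2 plants were kept for 2 weeks at a setting labelled 100, and control plants at a setting labelled 380. The labels write both settings in µmol m-2 s-1, a flux unit, and do not say which concentration it stands for. All plants were grown in chambers under 200 µmol m-2 s-1 of light with days of 16 h and nights of 8 h, at 22 °C and 70% humidity. The RNA was total RNA from newly expanded leaves, which the labels call mature. The labels do not state whether the 3 libraries of a group came from separate plants, so the p-values below measure only the spread between these libraries. They name no chamber run or sequencing batch either, so a batch that coincided with a group cannot be told apart from it.

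In a C3 leaf, Rubisco fixes CO2 directly, and its reaction with oxygen starts photorespiration, which releases CO2 again when glycine decarboxylase acts in the mitochondria. Low CO2 favours the reaction with oxygen. C3-C4 intermediates move photorespiratory glycine to the bundle sheath, the cells around the veins, and release the CO2 there, where it can be fixed again. The genes of the table carry numbered identifiers that the files do not pair with gene names. No pathway was therefore assigned to a gene, the leaf label was not checked against marker genes, and genes are described by their values. In leaf RNA, fewer cells of a type and less RNA per cell cannot be told apart.

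The libraries differed in how much of their TPM was held by few genes. The 100 most abundant genes of a library held 53.5% to 54.6% in the F. robusta controls and 62.9% to 64.8% at low CO2. In F. sonorensis they held 36.7% to 45.0% in the controls, with control replicate 1 the lowest, and 46.9% to 49.0% at low CO2. TPM is a share, so where abundant transcripts gain, the others lose TPM. Values below are for the deposited TPM unless stated, and the main counts are also given for a median-of-ratios scaling, which sets the typical gene equal between libraries. The median log2 fold change over the tested genes was -0.37 in F. robusta and -0.18 in F. sonorensis on the deposited TPM, and 0.01 and 0.02 after median-of-ratios scaling.

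Low CO2 changed the transcript abundance of many genes differently in F. sonorensis and F. robusta. The difference between the responses, F. sonorensis minus F. robusta, was called for 2870 of 11373 genes (25.2%; limma on log2(TPM + 1), Benjamini-Hochberg adjusted p below 0.05). It was positive for 1975 genes (17.4%) and negative for 895 (7.87%). At an unadjusted p below 0.05, 4422 genes passed. The called differences were at least 2-fold for 1753 of the 2870 genes. Most positive differences came from genes with lower values at low CO2 in F. robusta: 1005 genes had a negative estimate in F. robusta and a positive one in F. sonorensis, and 940 had negative estimates in both with the larger one in F. robusta. For the other 30, both estimates were positive and the larger one was in F. sonorensis. Among the 895 negative differences, 628 genes had a positive estimate in F. robusta and a negative one in F. sonorensis.

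The split into positive and negative differences depended on the scaling. After median-of-ratios scaling, 2742 genes were called (24.1%), of which 1389 were positive (12.2%) and 1353 negative (11.9%). Both scalings called 2264 genes, and all of them had the same direction. The median difference over all tested genes was 0.20 on the deposited TPM and 0.02 after median-of-ratios scaling. F. sonorensis control replicate 1 stood apart in its top genes, and without it 3645 genes were called, 2725 positive and 920 negative. Without F. robusta low CO2 replicate 2 the count fell to 1785, with 1243 positive and 542 negative. The negative count was also lower without F. robusta low CO2 replicate 3 (544) or control replicate 2 (586).

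**Figure D1:**
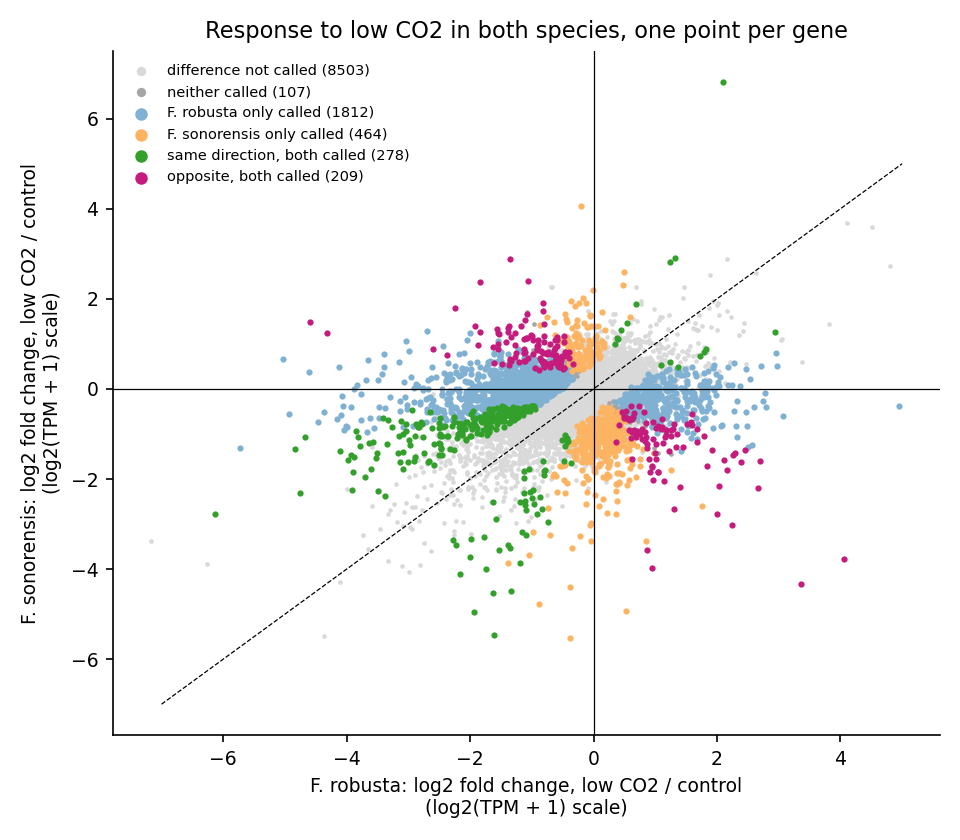
Log2 fold change of each of the 11373 tested genes, low CO2 over control, in F. robusta (x axis) and F. sonorensis (y axis), on the log2(TPM + 1) scale. Points are coloured by class, and the dashed line marks equal responses; the 209 genes called in both species with opposite sign lie in the upper left and lower right of the plot.

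In the same fit, 5743 genes were called for the response of F. robusta itself (50.5%), 994 higher at low CO2 (8.74%) and 4749 lower (41.8%). In F. sonorensis 2938 genes were called (25.8%), 559 higher (4.92%) and 2379 lower (20.9%), and 1806 without low CO2 replicate 1. The excess of lower calls depended on the scaling: median-of-ratios scaling called 2417 genes higher (21.3%) and 2458 lower (21.6%) in F. robusta, and 1288 higher (11.3%) and 1333 lower (11.7%) in F. sonorensis. The spread of the fold changes over genes was wider in F. robusta (SD 0.82) than in F. sonorensis (SD 0.65), while the median residual SD between replicate libraries was 0.21 and 0.23. Across genes the responses of both species were correlated with Pearson's r = 0.321 and Spearman's rho = 0.294, as a description over 11373 genes that share libraries and are not independent.

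The 2870 genes were separated by the response in each species. Genes called in both species with opposite sign numbered 209, or 7.28% of the called genes. Genes called in both species with the same sign, which differed in size only, numbered 278 (9.69%). Most called genes belonged to neither class: 1812 (63.1%) were called in F. robusta only, 464 (16.2%) in F. sonorensis only, and 107 in neither. These classes were set by the same libraries, so their counts and fold changes are descriptions. By the sign of the estimates alone, 1633 of the 2870 genes (56.9%) were opposite, against 33.8% of all tested genes. After median-of-ratios scaling, 1864 of 2742 (68.0%) were opposite in sign, against 40.1% of all tested genes. Without F. robusta low CO2 replicate 2 the count on the deposited TPM was 1050. Selecting genes for a called difference by itself favours opposite signs, so the higher shares among called genes follow in part from the selection.

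**Figure D2:**
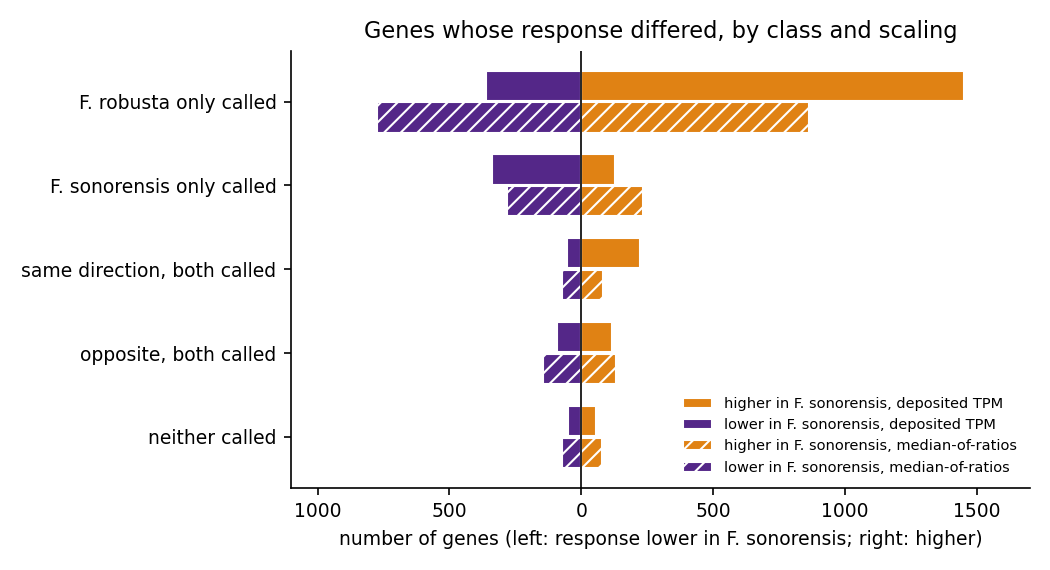
Number of genes called for the species difference in each class (y axis), with differences lower in F. sonorensis to the left and higher to the right of 0 on the x axis. Plain bars use the deposited TPM and hatched bars median-of-ratios scaling; genes called in F. robusta only were the most numerous under both, and their excess of positive differences, 1451 against 361, shrank to 863 against 774.

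Fewer than 1 in 2 of the deposited-TPM members of the opposite and size classes kept their class between scalings. None moved from one of these classes to the other. Such a move needs a called response to be called with the opposite sign, so its absence follows largely from the definitions. Of the 209 opposite genes, 102 were opposite after median-of-ratios scaling too, 66 were called in F. sonorensis only and 41 in F. robusta only. Of the 278 genes that differed in size only, 110 kept the class, 79 were called in F. robusta only, 23 in F. sonorensis only, and 66 were no longer called for the difference. Median-of-ratios scaling gave 276 opposite genes and 158 that differed in size only. The 102 shared opposite genes were 48.8% of the first list and 37.0% of the second, and the 110 shared genes of the size class were 39.6% and 69.6%.

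Among the opposite genes, 118 were higher at low CO2 in F. sonorensis and lower in F. robusta. Their median TPM went from 18.5 to 7.80 in F. robusta and from 14.5 to 29.9 in F. sonorensis, and their median log2 fold changes were -0.85 and 0.80. The other 91 genes were lower in F. sonorensis and higher in F. robusta, with median log2 fold changes of -1.06 and 1.01. Their median TPM went from 5.14 to 13.2 in F. robusta and from 16.2 to 5.46 in F. sonorensis. The low CO2 and control libraries did not overlap in either species for 182 of the 209 genes. Of all tested genes, 4.34% were free of overlap in both species in opposite directions. Being called in both species on these same libraries favours such separation, so the contrast follows largely from how the class was formed. The median absolute difference was 1.92 log2 units in the opposite class, 1.11 in the size class and 1.13 over all called genes. After median-of-ratios scaling the opposite class held 130 genes higher in F. sonorensis and 146 lower, so the larger direction changed.

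The count of opposite genes moved with single libraries. It was 129 without F. robusta low CO2 replicate 3, 128 without F. sonorensis low CO2 replicate 1 and 132 without F. sonorensis low CO2 replicate 3. Without F. sonorensis control replicate 1 it was 251, with 171 higher in F. sonorensis and 80 lower. The genes higher in F. sonorensis numbered 75, 74 and 66 in the first 3 of these fits and 72 without F. sonorensis control replicate 2. The genes lower in F. sonorensis numbered 54 without F. robusta low CO2 replicate 2, its low CO2 replicate 3 or F. sonorensis low CO2 replicate 1, and 59 without F. robusta control replicate 1, while 150 were found without F. robusta low CO2 replicate 1 and 144 without its control replicate 3. Under all 23 alternative settings, 32 of the 209 genes were opposite each time, 15 higher in F. sonorensis and 17 lower. Their absolute differences ran from 1.60 to 7.83 log2 units with a median of 3.22. A minimum mean TPM of 5, among these settings, left 7105 genes tested, and genes below it were not tested in all 23.

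Gene20453 had the largest positive difference among opposite genes of both scalings. In F. robusta its TPM was 61.9, 78.3 and 80.6 in the controls and 4.22, 2.16 and 0.75 at low CO2. Its TPM in F. sonorensis was 31.3, 23.5 and 29.5 in the controls and 86.9, 52.7 and 113.9 at low CO2. The groups did not overlap in either species, which was a condition for printing the identifier of each gene named here. F. robusta, the higher species in control air, was the lower one at low CO2. The log2 fold changes were -4.59 and 1.495, a difference of 6.09 (SE 0.50, limma adjusted p = 4.19e-05). In all 23 alternatives the gene was called, with differences between 5.69 and 6.70. For each gene named, the alternatives reused the libraries that chose it. Keeping the class under median-of-ratios scaling, 1 of the alternatives, was a condition for naming it.

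Gene23108 had the largest negative difference. Its TPM in F. robusta was 11.2, 4.86 and 147.8 in the controls and 159.4, 615.4 and 493.6 at low CO2, and the third control lay close to the lowest low CO2 library. F. sonorensis had 118.3, 88.7 and 45.2 TPM in the controls and 3.59, 5.45 and 5.53 at low CO2. The groups did not overlap in either species, as the naming rule required, but the spread between the F. robusta controls was wide. The log2 fold changes were 4.05 and -3.77, a difference of -7.83 (SE 1.31, limma adjusted p = 0.00189), which ranged from -9.21 to -6.87 over 23 alternatives.

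**Figure D3:**
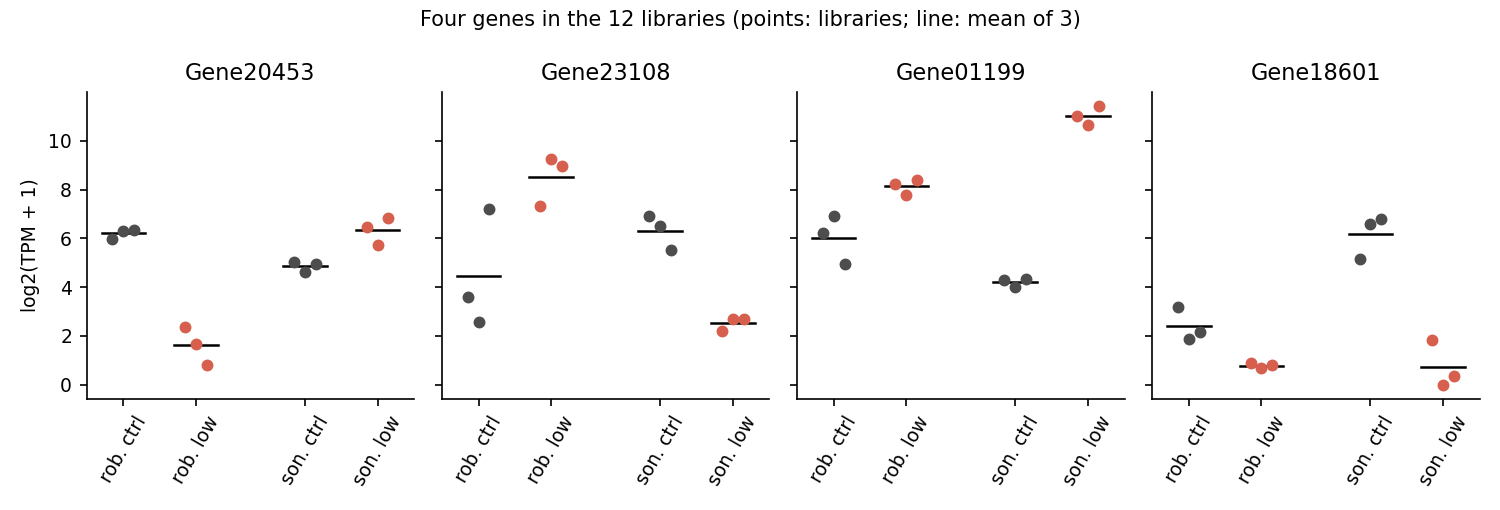
Log2(TPM + 1) of 4 genes in the 12 libraries (y axis), with control and low CO2 libraries of F. robusta and F. sonorensis side by side (points, libraries; line, mean of 3). Gene20453 and Gene23108 moved in opposite directions in the species, Gene01199 was higher and Gene18601 lower at low CO2 in both, with the larger change in F. sonorensis.

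The opposite class also held abundant transcripts, described here by their rank of mean TPM and chosen after their values were seen. The most abundant gene lower in F. sonorensis had a TPM of 21223, 17292 and 17287 in the F. sonorensis controls and 2644, 2871 and 2625 at low CO2. In F. robusta the same gene was at 283.8, 149.6 and 102.1 in the controls and 575.3, 566.8 and 867.4 at low CO2. The groups did not overlap, and the gene was far more abundant in F. sonorensis under both treatments, although levels of different species may also differ through the reference used for each. Its log2 fold changes were 2.00 in F. robusta and -2.77 in F. sonorensis, a difference of -4.77 (SE 0.42, limma adjusted p = 5.62e-05), and it was opposite in all 23 alternatives. The second gene by abundance had a TPM of 502.6, 310.0 and 1189 in the F. robusta controls and 1436, 3650 and 2455 at low CO2. Its TPM in F. sonorensis was 2404, 2962 and 2892 in the controls and 508.3, 771.9 and 597.0 at low CO2. The order of the species was reversed between treatments for this gene, and its difference was -4.19 (SE 0.60, limma adjusted p = 0.000839).

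Of the opposite genes higher in F. sonorensis, the most abundant had a TPM of 3316, 3082 and 2815 in the F. robusta controls and 2135, 1909 and 1716 at low CO2. F. sonorensis had 2731, 3134 and 2980 TPM in the controls and 4963, 5629 and 4564 at low CO2. The species overlapped in control air and lay apart at low CO2, with a difference of 1.45 (SE 0.20, limma adjusted p = 0.000633). After median-of-ratios scaling its difference was 1.23 and only the response of F. sonorensis was called. The second gene by abundance went from 1046, 1169 and 649.9 to 407.8, 126.3 and 141.2 TPM in F. robusta and from 347.3, 198.3 and 457.8 to 1032, 1474 and 862.6 in F. sonorensis. Its difference was 4.04 (SE 0.61, limma adjusted p = 0.00113), and it stayed in the opposite class under median-of-ratios scaling.

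Genes that differed in size only were mostly lower at low CO2 in both species. Of the 278 genes, 262 were lower in both, and the larger change was in F. robusta for 215 and in F. sonorensis for 47. The 262 genes had median log2 fold changes of -1.70 in F. robusta and -0.84 in F. sonorensis, and their median TPM went from 25.1 to 6.76 and from 29.3 to 13.8. Only 16 genes were higher in both, with the larger change in F. robusta for 7 and in F. sonorensis for 9. The low CO2 and control libraries were free of overlap in both species for 270 of the 278 genes, while 27.6% of all tested genes were. That share includes the 4.34% of tested genes free of overlap in opposite directions, which cannot belong to this class. As for the opposite genes, the contrast follows largely from the calls made on these same libraries. After median-of-ratios scaling, 109 genes were lower in both species, 81 of them with the larger change in F. robusta, and 49 were higher in both, 47 of them with the larger change in F. robusta.

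This class depended on single libraries and on the scaling. It held 167 genes without F. robusta low CO2 replicate 2, 180 without its low CO2 replicate 3 and 164 without its control replicate 2. Without F. sonorensis low CO2 replicates 1 or 3 it held 135 and 140, and without control replicates 2 or 3 it held 185 and 172. Without F. sonorensis control replicate 1 it held 309. Under all 23 alternatives, 28 of the 278 genes kept the class. Genes below a mean TPM of 5 in either species were not tested in the alternative with that minimum.

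Gene01199 had the largest positive difference of this class. In F. robusta its TPM was 74.5, 118.1 and 30.0 in the controls and 300.5, 217.0 and 330.4 at low CO2. F. sonorensis had 18.4, 14.97 and 19.4 TPM in the controls and 2045, 1614 and 2750 at low CO2. Low CO2 and control libraries did not overlap in either species, as the naming rule required. F. sonorensis had the lower controls and the higher low CO2 libraries. The log2 fold changes were 2.10 and 6.82, a difference of 4.72 (SE 0.55, limma adjusted p = 0.000282), and between 4.29 and 5.26 over 23 alternatives.

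Gene18601 had the largest negative difference. Its TPM in F. robusta was 8.05, 2.69 and 3.46 in the controls and 0.84, 0.59 and 0.75 at low CO2. F. sonorensis had 34.4, 95.2 and 111.2 TPM in the controls and 2.52 and 0.27 in low CO2 replicates 1 and 3, and it was listed at 0 in replicate 2. The groups did not overlap in either species, as the naming rule required. The low CO2 values are so low that the pseudocount of 1 understates the change. The log2 fold changes were -1.62 and -5.46, a difference of -3.84 (SE 0.72, limma adjusted p = 0.00341), and between -4.88 and -3.48 over the 22 alternatives that tested it.

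The 1812 genes called in F. robusta only were mostly genes lower at low CO2 on the deposited TPM, 1451 against 361 higher, while median-of-ratios scaling gave 863 lower and 774 higher. The 1451 with a positive difference had a median log2 fold change of -1.05 in F. robusta and 6.23e-05 in F. sonorensis, and their median TPM went from 17.9 to 6.93 and from 18.2 to 18.3. The 361 with a negative difference had medians of 1.05 and -0.24. A gene not called in F. sonorensis is not shown to be unchanged there: the 95% interval of its fold change lay within 2-fold for 1530 of the 1812 genes, and 294 had an unadjusted p below 0.05. Of the 464 genes called in F. sonorensis only, 337 had a negative difference (283 of 516 after median-of-ratios scaling), with medians of 0.16 in F. robusta and -1.14 in F. sonorensis. The F. robusta interval lay within 2-fold for 369 of these genes, and 39 passed an unadjusted p of 0.05.

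The classes held very different amounts of transcript. The 361 genes higher at low CO2 and called in F. robusta only held 7.55%, 6.45% and 7.68% of the summed TPM in the F. robusta controls and 11.96%, 15.6% and 14.97% at low CO2. In F. sonorensis they held 7.53%, 9.49% and 8.62% in the controls and 8.95%, 8.40% and 9.06% at low CO2, so those groups overlapped. Few genes made up this sum: 5 members held 85.7% of it in the F. robusta controls. The most abundant by mean TPM over both species went from 12127, 10830 and 12474 to 19590, 24788 and 24902 in F. robusta and from 16363, 22341 and 19525 to 23897, 20607 and 24242 in F. sonorensis. The groups overlapped in F. sonorensis only, and the difference of -0.71 (SE 0.23, limma adjusted p = 0.0378) was not called after median-of-ratios scaling (-0.94, adjusted p = 0.0513). The second by abundance went from 19646, 17154 and 22289 to 29115, 41676 and 38704 in F. robusta. F. sonorensis had 5972, 9066 and 7723 TPM in the controls and 6904, 7358 and 6247 at low CO2, without separation of the groups. The difference of this second gene was -1.01 (SE 0.27, limma adjusted p = 0.0188), and -1.24 after median-of-ratios scaling (adjusted p = 0.0256).

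The 1451 genes lower at low CO2 and called in F. robusta only held 9.67%, 10.2% and 9.29% in the F. robusta controls and 4.83%, 3.43% and 3.93% at low CO2. In F. sonorensis they held 7.97%, 6.85% and 7.46% in the controls and 7.32%, 7.85% and 7.47% at low CO2. The most abundant of them went from a mean TPM of 11707 to 8381 in F. robusta and from 1705 to 2037 in F. sonorensis. Its difference of 0.73 (SE 0.24, limma adjusted p = 0.0448) was not called after median-of-ratios scaling (0.51, limma adjusted p = 0.206). The second had a difference of 1.84 (SE 0.30, limma adjusted p = 0.00160). The third had the largest change in F. robusta of these members and went from 8089, 7951 and 9087 TPM to 1269, 688.7 and 1249 there. F. sonorensis had 1260, 1009 and 1192 TPM in the controls and 845.2, 864.3 and 835.6 at low CO2; every low CO2 library lay below the controls, but the response was not called (log2 fold change -0.44, limma adjusted p = 0.145). The difference was 2.58 (SE 0.30, limma adjusted p = 0.000268).

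**Figure D4:**
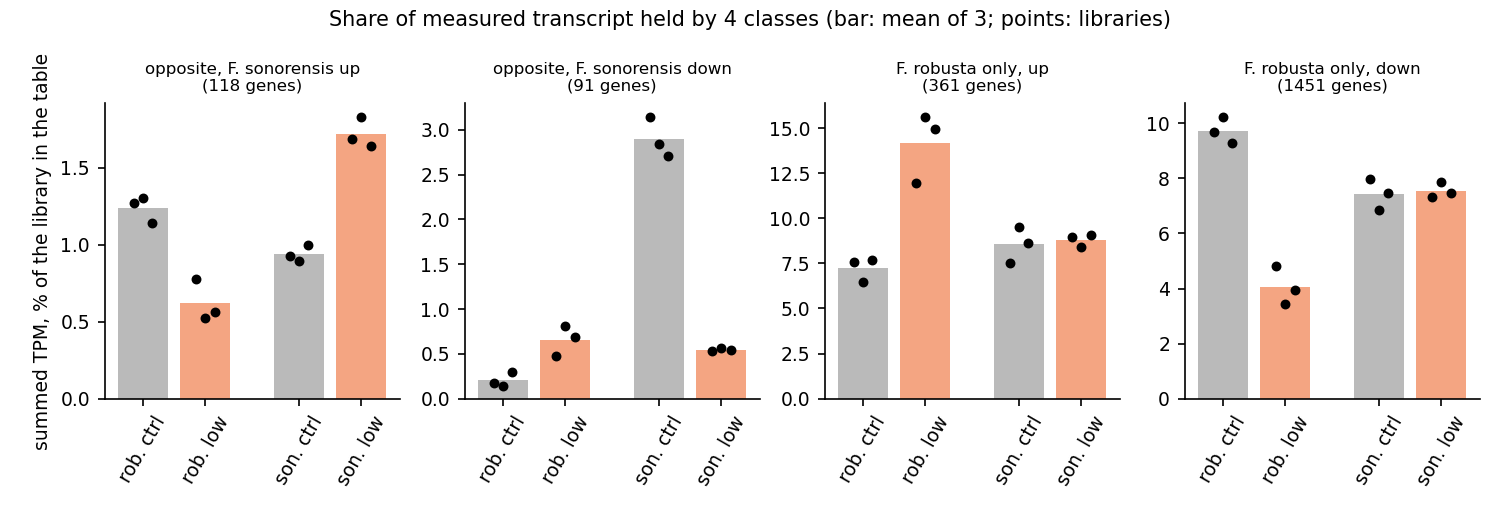
Summed TPM of 4 classes as a percentage of the library's TPM in the table (y axis), for control and low CO2 libraries of each species (bar, mean of 3; points, libraries). The opposite classes held between 0.143% and 3.14% of a library, and the genes called in F. robusta only and higher there held up to 15.6%.

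The opposite classes held less. The 118 genes higher in F. sonorensis held 1.28%, 1.31% and 1.14% in the F. robusta controls and 0.775%, 0.528% and 0.562% at low CO2. In F. sonorensis they held 0.924%, 0.894% and 1.00% in the controls and 1.69%, 1.83% and 1.64% at low CO2. The 91 genes lower in F. sonorensis held 3.14%, 2.84% and 2.70% in its controls and 0.527%, 0.570% and 0.545% at low CO2. Most of that was the single abundant gene described above, which made up 74.9% of the sum in the controls. In F. robusta the 91 genes held 0.180%, 0.143% and 0.296% in the controls and 0.474%, 0.806% and 0.692% at low CO2.

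The responses also moved the levels of the species relative to each other. For the 118 opposite genes higher in F. sonorensis, the mean TPM of F. sonorensis exceeded that of F. robusta for 45 genes in control air and 110 at low CO2. For the 91 genes lower in F. sonorensis it did so for 86 genes in control air and 19 at low CO2. Over all 11373 genes, the numbers were 7933 and 8463. The absolute gap between these means was narrower at low CO2 for 56 of the 91 genes and for 31 of the 118, against 4873 of all 11373. These counts follow in part from how the classes were formed.

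The share of called genes was larger among abundant genes. With the genes divided by mean TPM into 4 bins of equal size, from low to high, 18.0%, 23.7%, 28.8% and 30.4% of genes were called for the difference. Opposite genes made up 1.37%, 1.79%, 2.08% and 2.11% of these bins, and genes that differed in size only 0.809%, 2.11%, 3.24% and 3.62%. The median SE of the difference was 0.30 in the lowest bin and 0.26 in the highest. The lowest bin held mean TPM of 1.015 to 5.50, where the pseudocount of 1 understates fold changes. How far this lowered its share of called genes was not tested. TPM keeps no read depth, so the counting error behind each value is unknown.

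The classes were then followed in the 12 libraries of F. ramosissima, another C3-C4 intermediate, and F. trinervia, a C4 species, which had no part in forming them. In F. ramosissima 166 of the 209 opposite genes reached a mean TPM of 1, and limma called 0 of them; 7 were higher and 11 lower at an unadjusted p below 0.05. Over all genes of the comparison, 22 of 9389 (0.234%) were called in F. ramosissima, 0.0639% as higher and 0.17% as lower. The estimate had the sign of F. sonorensis for 116 of the 166 genes (69.9%), against 61.1% of all genes with opposite signs in the first species pair. It did so for 62 of 96 genes higher in F. sonorensis and 54 of 70 lower, with medians of 0.06 and -0.27 against -0.01 over all genes. The median of 0.06 changed sign with single libraries. Leaving out low CO2 replicate 2 or control replicate 3 gave -0.01 or -0.02, with 47 of 96 genes positive each time, and leaving out low CO2 replicate 1 or control replicate 2 gave 0.17 or 0.16. The median of -0.27 became -0.16 or -0.18 with low CO2 replicate 2 or control replicate 1 left out. Leaving out 1 library gave shares from 57.8% (low CO2 replicate 2 left out) to 77.1% (control replicate 2 left out), and median-of-ratios scaling gave 64.5% against 56.2%.

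In F. trinervia 177 of the 209 opposite genes were measured, and 4 were called, 1 higher and 3 lower, against 134 of 10105 genes overall (1.33%; 0.139% higher and 1.19% lower). The sign was that of F. sonorensis for 87 of the 177 genes (49.2%) and for 48.5% of all genes with opposite signs. These values moved with single F. trinervia libraries. Without low CO2 replicate 2 the share was 33.3%, and 23 of the 177 genes were called against 14.5% of all genes, while without low CO2 replicates 1 or 3 it was 59.9% and 61.6%, and 1 gene was called each time. A count of 1 was also found without control replicate 1 or control replicate 3.

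The most abundant opposite gene, lower at low CO2 in F. sonorensis, had a TPM of 7135, 7986 and 4563 in the F. trinervia controls and 828.1, 1640 and 392.8 at low CO2. The 3 controls all exceeded the 3 low CO2 libraries, and the change was -2.97 on the log2 scale (SE 0.49, limma adjusted p = 0.0357). The call was lost when any library other than low CO2 replicate 2 was left out, with adjusted p from 0.0681 to 0.156, and with a replicate block (adjusted p = 0.0541), and the direction was kept. In F. ramosissima the gene was listed at 0 in all 6 libraries, and the files do not show whether its transcript was absent there or was not assigned to this row. In the F. trinervia controls this gene had a mean of 6561 TPM of the 10792 summed over the 91 genes, and at low CO2 953.7 of 4167. The 91 genes held 0.991% to 1.29% of the F. trinervia controls and 0.344% to 0.530% of its low CO2 libraries. In F. ramosissima, where the sum lacks that gene, they held 0.222% to 0.363% and 0.174% to 0.273%, and the groups overlapped.

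Of the genes that differed in size only, 251 were measured in F. ramosissima, where 1 was called higher and 5 lower, against 0.234% of all genes. Without single libraries of F. ramosissima this count lay between 0 and 5: it was 0 without low CO2 replicate 2, low CO2 replicate 3 or control replicate 2, and 1 without low CO2 replicate 1 or control replicate 3. In F. trinervia 4 of 256 were called, all lower, against 1.33% of all genes, and 118 without low CO2 replicate 2, when 14.5% of all genes were called. It was 0 there without low CO2 replicate 3, control replicate 1 or control replicate 3. Of the genes lower in both first species, 40 of 236 had a positive estimate in F. ramosissima (median -0.25, against -0.01 over all genes), where 47.6% of all genes were positive. This pattern moved with single libraries: 109 of 236 were positive without low CO2 replicate 1 (46.2%, median -0.02, against 62.3% and 0.09 over all genes), and 13 without low CO2 replicate 2 (median -0.48). In F. trinervia 28 of 242 were positive (median -0.41), against 35.5% of all genes (median -0.12), and leaving out low CO2 replicates 1 or 2 gave medians of -0.22 or -0.74. Of the genes higher in both, 14 of 15 were positive in F. ramosissima and 12 of 14 in F. trinervia.

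**Figure D5:**
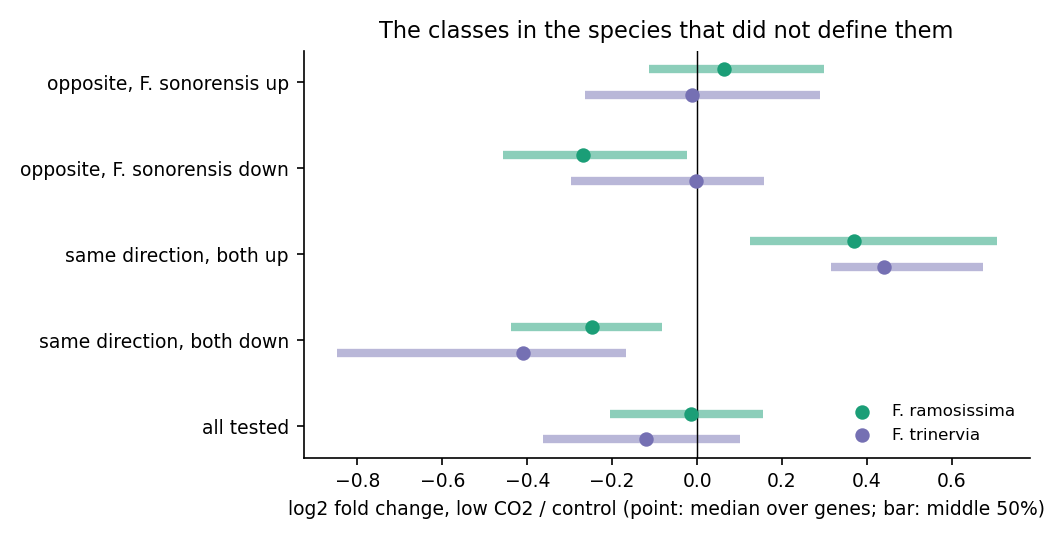
Log2 fold change, low CO2 over control (x axis), of the classes in F. ramosissima and F. trinervia (points, median over genes; bars, middle 50% of genes). Medians of the opposite classes lay at 0.06 and -0.27 in F. ramosissima and near 0 in F. trinervia, and those of the same-direction classes lay on the side of the class in both species, although the median of the genes lower in both was -0.02 in F. ramosissima without low CO2 replicate 1.

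Gene18601, lower in both first species, was at 56.3, 107.4 and 80.4 TPM in the F. ramosissima controls and 12.5, 7.46 and 8.09 at low CO2. The groups did not overlap, and the change was -2.98 on the log2 scale (SE 0.29, limma adjusted p = 0.0155). Leaving out low CO2 replicate 2, low CO2 replicate 3 or control replicate 2 gave an adjusted p of 0.0586, 0.0780 or 0.0629. In F. trinervia the gene stayed under the minimum TPM, with means of 0.18 and 0.30. Gene01199 had mean TPM of 954.7 ± 470.1 (SD, n = 3) in the F. ramosissima controls and 1852 ± 536.9 at low CO2, which was not called (log2 fold change 1.02, limma adjusted p = 0.325), and 0.64 and 0.78 in F. trinervia. Gene20453 and Gene23108 were called in neither species, with log2 fold changes of -0.03 and -0.54 in F. ramosissima and -0.50 and -0.05 in F. trinervia.

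The same separation was made for each pair of the 4 species, which share libraries and are given side by side. Both classes need a called response in each species. Fitted alone, F. ramosissima had 0.234% and F. trinervia 1.33% of the genes of the main comparison called. Low class counts in pairs with these species therefore do not show that opposite responses were absent. The response of F. sonorensis minus that of F. robusta had 209 opposite genes and 278 that differed in size only. F. ramosissima minus F. robusta had 23.5% of genes called, 5 opposite and 12 in size only. F. trinervia minus F. robusta had 15.6% called, 56 opposite and 38 in size only. Without F. robusta the shares were smaller: 2.64% for F. ramosissima minus F. sonorensis, 3.02% for F. trinervia minus F. sonorensis, with 21 opposite genes, and 0.181% for F. trinervia minus F. ramosissima. The median SE of the difference was between 0.27 and 0.34 log2 units in these pairs. All pair values are for the deposited TPM with all libraries, and their dependence on single libraries is not given. The calls of F. trinervia fitted alone moved with its low CO2 replicate 2, as described above.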

How the data were processed

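Leaf RNA was sequenced as Illumina read pairs. The values were TPM per gene, deposited by the authors as 1 table with 24 library columns, matched to the samples by their labels. The submitters' processing notes name RSEM and a count package without roles or versions, and neither they nor the labels name the reference. The deposited TPM of a library summed to 914241 to 922130 in F. robusta and 857693 to 872321 in F. sonorensis, so part of each library lies outside the table. TPM keeps no read depth. Of the rows, 807 were at 0 in all 24 libraries.

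Genes reaching a mean TPM of 1 in each of both species entered the fit as log2(TPM + 1), to which limma 3.58.1 in R 4.3.3 fitted 4 group means over 12 libraries (eBayes with trend, two-sided, Benjamini-Hochberg adjusted p below 0.05 over all genes tested). Fold changes on this scale are understated for low genes. Genes were classed by the calls of the difference and of each species' response. F. ramosissima and F. trinervia were fitted alone. Pairs of replicate numbers deviated together with correlations of -0.32 to 0.29 in F. robusta, -0.22 to 0.0016 in F. sonorensis, 0.096 to 0.47 in F. ramosissima and -0.11 to 0.13 in F. trinervia. Not every pair of a species passed 0.1, so libraries were not paired.

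Identifiers were printed for the largest positive and negative difference of the opposite and size classes, among genes in the class under both scalings, without overlap of the groups in both species and with a mean TPM of 10 or more in a group. The members and lists were chosen with earlier results of these data known. Alternatives were a pseudocount of 0.1, no minimum and a minimum of 5, median-of-ratios and quantile scaling, other prior spreads, 1 fit over 24 libraries, a replicate block, and leaving out each library. After seeing the data, a scaling by the TPM outside each species' 100 most abundant genes was added. The scripts were tested on simulated data with planted species differences. Of 100 planted differences of 1 log2 unit, 32 were recovered, and of 100 of 2 log2 units, 82 were. Of the genes called there, 0.87% had no planted difference. A difference that was not called is therefore not shown to be absent. The planted genes were few among the 11373 genes simulated, with independent normal noise. In the data 25.2% of genes were called, so the shares from the simulation need not hold there. Lists of C4 cycle, photorespiration and Calvin cycle genes were not used, since the files pair no names with the identifiers. Figures were made in Python 3.11.15 with matplotlib 3.10.9.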

Additional observations from a re-analysis of the deposited data

Results flagged for a closer look

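The responses of F. sonorensis and F. robusta differed by the test of the difference itself for 2870 genes. For the genes named, limma gave a difference in log2 fold change, F. sonorensis minus F. robusta, of 6.09 for Gene20453, -7.83 for Gene23108, 4.72 for Gene01199 and -3.84 for Gene18601.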

How the results depend on the processing

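Without a minimum TPM, 4667 genes were called for the difference, 3105 positive and 1562 negative, and a minimum of 5 left 555 negative calls; both change the number of genes tested. Opposite genes lower in F. sonorensis numbered 146 under median-of-ratios scaling, 141 under quantile normalization and 140 when libraries were rescaled without the 100 most abundant genes of each species, which was chosen after seeing the data. Genes that differed in size only numbered 158, 163 and 168 under these scalings, and 132 in 1 fit over all 24 libraries. Median-of-ratios scaling gave 1353 negative calls. Leaving out each library in turn gave 1785 to 3645 calls (1243 to 2725 positive, 542 to 1102 negative), 128 to 309 opposite genes (66 to 171 higher in F. sonorensis, 54 to 150 lower), 1050 to 2179 opposite in sign and 135 to 309 in size only. Responses called ranged from 4557 to 6304 in F. robusta and from 1806 to 3105 in F. sonorensis. Opposite genes called in F. ramosissima numbered 1 under median-of-ratios scaling and 0 in each fit without 1 library, and those in size only 0 to 5. In F. trinervia the counts were 1 to 23 and 0 to 118. The cause of these changes was not tested.

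A replicate block in the model left 2088 genes called for the difference, 174 were opposite and 170 differed in size only. The block gave 2 opposite and 12 size-only genes called in F. ramosissima, where 95 of 9389 genes were called in all (1.01%), and 0 and 0 in F. trinervia, where 8 of 10105 were (0.0792%). In F. ramosissima the same-number correlations were 0.34, 0.47 and 0.096, each above those of other numbers, which is a hint from the data and not from the design.

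The differences of the 4 genes with identifiers kept their direction and call in each alternative that tested them. These genes were chosen as extremes of the same libraries, and partly by median-of-ratios scaling, so this was largely set in advance. Gene18601 was not tested with a minimum of 5. No opposite gene became a gene of the size class, or the reverse, in any of the 23 alternatives. The class definitions leave little room for this, since a called response would have to be called with the opposite sign. The median of the size class in F. trinervia was -0.39, and -0.17 or -0.69 without low CO2 replicates 1 or 2. In F. ramosissima it was -0.24, and -0.01, -0.45 or -0.15 without low CO2 replicate 1, low CO2 replicate 2 or control replicate 2. TPM without read depth and 3 libraries per group limit what can be called, and a level compared between species carries any difference in reference.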
